A study of Mus musculus with 6 samples.

Results

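The 36 proteasome subunit genes described here were every gene of the deposited table whose symbol is Psma, Psmb, Psmc or Psmd followed by a number, apart from the 3 immunoproteasome genes Psmb8, Psmb9 and Psmb10. They were 36 of 55421 genes and comprised 8 Psma and 8 Psmb genes of the core particle (20S) and 6 Psmc and 14 Psmd genes of the regulatory cap (19S). The RNA came from mouse leukemia cells that carried AML1-ETO9a (AE9a), a truncated form of the AML1-ETO fusion protein, and the question was how loss of Ddit4, which encodes a stress-induced inhibitor of mTOR, changes their transcriptome. AE9a had been brought by retrovirus into c-Kit+ hematopoietic stem and progenitor cells of C57BL/6 mice, which were either Ddit4+/+ (wild type, labelled AE9a-Ddit4+/+, 3 libraries) or Ddit4-/- (knockout, labelled AE9a-Ddit4-/-, 3 libraries). Both groups thus carried the AE9a transgene and the GFP marker, both had been passed in equal cell numbers into sub-irradiated recipients, donors and recipients were 6 to 8 weeks old by the study's methods, and the bone marrow leukemia cells were kept in IMDM with 10% FBS by the labels. In the paper, the transduced cells first went into lethally irradiated recipients, and the secondary transplantation of leukemia cells used sublethally irradiated ones. It is not stated whether the libraries of a group came from separate primary leukemias, so the p values measure the spread between libraries, which may be technical. In the paper's transplantation cohort, fewer knockout recipients developed primary leukemia than there are knockout libraries here. If the knockout libraries came from that cohort, they cannot be 3 separate primary leukemias.

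The proteasome degrades proteins that carry ubiquitin chains. Its core is a barrel of alpha rings and beta rings, with the proteolytic sites on some of the beta subunits, and its cap binds ubiquitinated proteins, removes the ubiquitin and unfolds the substrate with a ring of ATPases. Assembly of the cap base is helped by dedicated chaperones, and the subunit genes are known to be induced together by the transcription factor Nfe2l1 when proteasome activity is short. Proteasome inhibitors are used against some blood cancers.

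Levels are given as CPM, which are counts scaled to a TMM-adjusted library total of 1e+06, and fold changes are knockout (AE9a-Ddit4-/-) over wild type (AE9a-Ddit4+/+) from the quasi-likelihood F-test of edgeR. A gene is called lower or higher where its p lies below 0.05 after Benjamini-Hochberg adjustment across the 18375 genes tested. Library totals ran from 62141558 to 72717681 counts. Apart from Psma8 and Psmb11, the members were well covered, at 776 to 23157 counts per library. Ddit4 itself read 228, 161 and 342 CPM in wild-type libraries 1 to 3 and 84.9, 77.7 and 85.9 CPM in the knockout samples (log2 fold change -1.56, SE 0.28, edgeR adjusted p = 0.00635), and the part of the gene that the knockout lacks is not known here. These values are RNA. By western blot, the paper reports that DDIT4 protein was wholly missing from AE9a-Ddit4-/- leukemia cells.

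The groups also differed in ways that touch every result. The share of mitochondrially encoded genes was 6.17% ± 1.52 in wild-type and 13.3% ± 2.75 in knockout libraries (SD, n = 3 each, exact two-sided permutation p = 0.1, the smallest that 3 against 3 allows). Genes listed as leukemic blast markers (Kit, Cd34, Ptprc, Runx1t1) summed to 95.6 to 223 CPM in wild-type and 1456 to 1887 CPM in knockout libraries, with 4 of 4 higher. Ptprc, which is not particular to blasts, made up most of the wild-type sum (91.9, 170 and 60.7 CPM). Kit read 14.6 to 31.6 CPM there. Cd34 was near absent from the wild-type libraries, at 2.26 to 9.83 CPM. Erythroid markers summed to 7511 to 16091 against 374 to 961 CPM (9 of 10 lower), and neutrophil markers to 3912 to 7053 against 1465 to 3314 CPM (4 of 8 lower). The neutrophil genes did not all move alike. Ctsg read 77.0, 135 and 31.6 against 138, 301 and 193 CPM and was not called, and Mpo had a log2 fold change of -0.10. B cell markers summed to 0.959 to 4.70 against 63.9 to 127 CPM (6 of 6 higher, Ms4a1 at 0 counts in the wild-type libraries), T and NK markers to 10.3 to 82.5 against 69.5 to 97.5 CPM (6 of 8 higher), megakaryocyte and platelet markers to 95.2 to 158 against 1898 to 2497 CPM (5 higher and 1 lower of 6), and stroma and endothelium markers to 6.25 to 9.91 against 158 to 191 CPM (4 of 7 higher). Pecam1 made up most of that last knockout sum (123, 143 and 144 CPM), and Col1a1, Col1a2 and Lepr were not called. Itga2b made up most of the megakaryocyte and platelet sum in the knockout libraries (1945, 2330 and 1788 CPM). Xist was lower and 4 of 4 Y-linked genes were higher in knockout libraries, with Kdm5d and Uty at 0 counts in the wild-type libraries. Xist read 1032, 566 and 884 CPM in wild-type and still 63.2, 20.3 and 129 CPM in knockout libraries. The Y-linked Ddx3y read 120, 125 and 88.2 CPM in the knockout libraries. The paper's methods name female C57BL/6 mice as recipients. Genotype and the sex of the cells cannot be told apart, and in bulk RNA fewer cells of a type cannot be told apart from less RNA per cell. The part of these differences in the subunit values was not tested.

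Upstream sequences of 5 members are shown. Psmd9, Psmd10 and Psmd14 had the largest decreases of all members, and Psmb5 and Psmb6, which encode catalytic subunits, were not called. Each sequence is the 250 bases before the gene's start in RefSeq (GRCm38.p6), read 5′ to 3′ along the gene's strand. Capitals mark TGACNNNGC, the core letters of the antioxidant response element through which Nfe2l1 is known to act, and CCAAT, the box bound by NF-Y, each on either strand (CCAAT then reads ATTGG). The regions are chr5:123227940-123228189 on the plus strand for Psmd9, chrX:140956712-140956961 on the minus strand for Psmd10, chr2:61711444-61711693 on the plus strand for Psmd14, chr14:54617996-54618245 on the minus strand for Psmb5 and chr11:70525107-70525356 on the plus strand for Psmb6.
Psmd9: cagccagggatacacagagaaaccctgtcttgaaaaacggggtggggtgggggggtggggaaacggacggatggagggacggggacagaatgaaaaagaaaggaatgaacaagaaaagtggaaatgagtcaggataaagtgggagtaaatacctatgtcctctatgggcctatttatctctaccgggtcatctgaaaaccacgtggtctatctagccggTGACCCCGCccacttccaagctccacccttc
Psmd10: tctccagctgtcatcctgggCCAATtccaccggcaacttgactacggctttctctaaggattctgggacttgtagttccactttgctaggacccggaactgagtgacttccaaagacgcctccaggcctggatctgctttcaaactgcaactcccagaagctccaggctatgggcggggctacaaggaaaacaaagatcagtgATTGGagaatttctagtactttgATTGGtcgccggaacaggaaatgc
Psmd14: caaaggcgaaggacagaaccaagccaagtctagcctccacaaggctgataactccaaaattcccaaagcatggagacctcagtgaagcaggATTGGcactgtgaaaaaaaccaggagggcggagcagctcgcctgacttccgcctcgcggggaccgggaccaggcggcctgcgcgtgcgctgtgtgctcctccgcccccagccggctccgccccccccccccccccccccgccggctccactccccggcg
Psmb5: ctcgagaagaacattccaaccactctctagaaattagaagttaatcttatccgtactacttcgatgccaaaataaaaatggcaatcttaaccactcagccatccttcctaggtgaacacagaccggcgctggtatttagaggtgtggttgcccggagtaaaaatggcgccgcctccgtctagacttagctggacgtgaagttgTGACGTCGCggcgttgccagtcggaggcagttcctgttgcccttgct
Psmb6: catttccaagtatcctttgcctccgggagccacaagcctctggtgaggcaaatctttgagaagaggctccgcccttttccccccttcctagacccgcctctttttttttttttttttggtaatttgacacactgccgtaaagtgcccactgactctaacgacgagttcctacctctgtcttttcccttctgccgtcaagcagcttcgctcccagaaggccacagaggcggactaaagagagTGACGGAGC

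In these sequences TGACNNNGC lay 31 bases before the start of Psmd9, 47 before that of Psmb5 and 9 before that of Psmb6. CCAAT lay 230, 47 and 24 bases before the start of Psmd10 and 159 before that of Psmd14. Over windows of 300 bases, which add 50 bases after the start, 29 of the 36 members had an entry and 7 (Psma8, Psmb1, Psmb2, Psmb7, Psmc3, Psmd3 and Psmd7) had none. TGACNNNGC was found in 5 of the 29 (17.2%: Psmb5, Psmb6, Psmc6, Psmd12 and Psmd9) and in 14% of 27025 genes. By part, it was in 2 of 12 core genes (16.7%) and 3 of 17 cap genes (17.6%). CCAAT was found in 12 of the 29 (41.4%) and in 41.1% of all genes, with 7 of 12 core genes (58.3%) and 5 of 17 cap genes (29.4%). Of the 10 lower members with an entry, 2 held TGACNNNGC and 6 held CCAAT. These letters are a description of the windows. The 5 sequences shown hold TGACNNNGC more often than the members as a whole. Psmd1, Psmd8 and Psmd13, whose log2 fold changes were smaller in size than that of Psmb5, lacked it. Of the 5 genes with TGACNNNGC, Psmd9 and Psmd12 were lower in knockout libraries whereas Psmb5, Psmb6 and Psmc6 were not called.

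Proteasome subunit transcripts tended to lower levels in the knockout libraries, in the core as in the cap. Of the 35 members tested, 12 were lower (34.29%) and 0 were higher, beside 10.7% lower and 19.4% higher among all genes tested. Among the 8218 genes with an average log2 CPM above 4, 17.0% were lower and 15.1% higher. This set is nearer to the members in abundance than all genes are, but it is not matched to them, and most members lie well above its cut. At an unadjusted p below 0.05 in edgeR, 21 members were lower, beside 17.4% of all genes and 26.4% of the abundant ones. At that p 0 members were higher, beside 4591 of the 18375 genes tested and 1613 of the 8218 abundant ones. DESeq2 called 10 members lower and 0 higher. Of the same 18375 genes it called 2353 lower and 4189 higher, and of the 8218 abundant ones 1458 lower and 1354 higher. The log2 fold change was negative in 34 of 35 members, beside 48.6% of all and 58.7% of abundant genes, and 4 of the 34 (Psmb6, Psmd1, Psmd8 and Psmd13) turned positive when abundant genes were centred on 0. In 21 of 35 members each knockout library lay below each wild-type library, beside 22.2% of all genes and 30.8% of the abundant ones. The median log2 fold change was -0.57 in the core (15 tested) and -0.62 in the cap (20 tested), against 0.04 over all genes and -0.17 over abundant genes. With the abundant genes centred on 0, the medians were -0.40 and -0.45, and 6 of 35 members were lower (17.1%: Psmb4, Psmc2, Psmd4, Psmd9, Psmd10 and Psmd14) beside 7.39% of all and 11.0% of abundant genes.

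**Figure D1:**
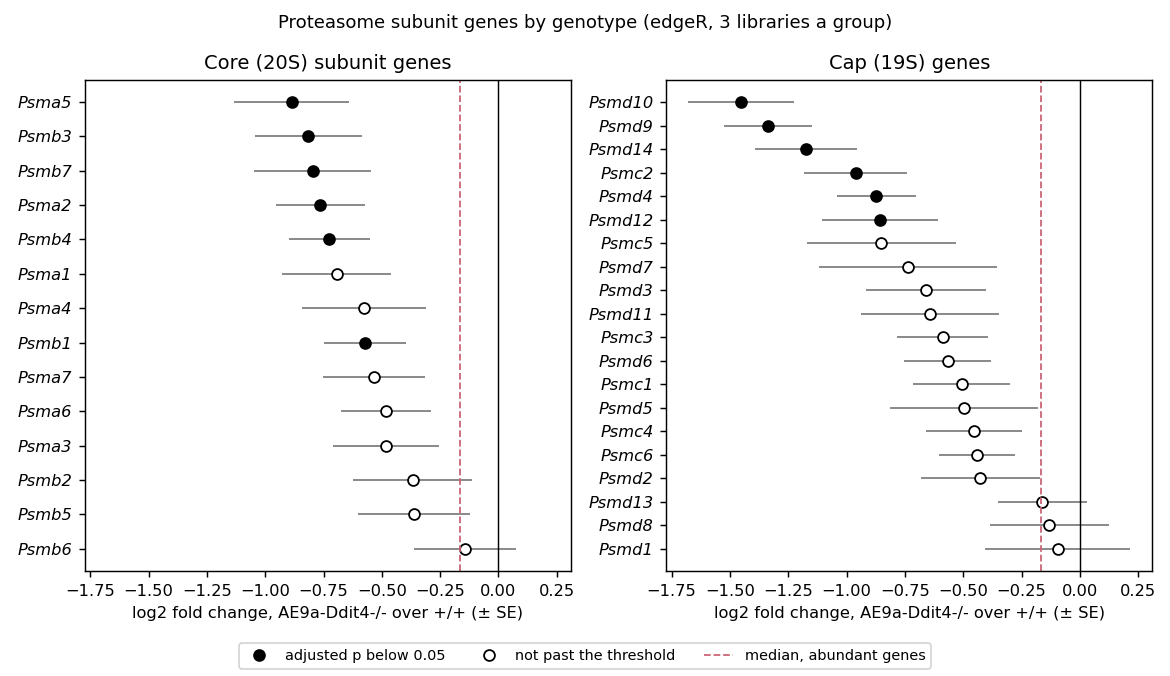
Log2 fold change (knockout over wild type) of each core gene (left) and cap gene (right), with the standard error as a bar; filled points have an adjusted p below 0.05 in edgeR and the dashed line is the median of abundant genes, -0.17. Each of the 34 genes lies left of 0, from -1.45 for Psmd10 to -0.10 for Psmd1, though Psmb6, Psmd1, Psmd8 and Psmd13 change sign when abundant genes are centred on 0; Psmb11 and Psma8, which had few counts, are left out.

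Cap genes held the 3 largest decreases, and 2 of the 3 assembly chaperone genes, Psmd10 and Psmd9, led them. Psmd10 (chromosome X, 140948429 to 140956728, minus strand, GRCm38) encodes gankyrin, a chaperone of the ATPase ring. It read 42.9, 35.7 and 45.6 CPM in wild-type libraries 1 to 3 and 12.5, 16.6 and 16.3 CPM in knockout libraries 1 to 3. The groups did not overlap, and its fitted level was 36.6% of that in wild type (log2 fold change -1.45, SE 0.23, edgeR adjusted p = 0.00349). It is the only member on the X chromosome, where abundant genes had a median of -0.30 and 14.1% of genes tested were lower. Relative to that median its log2 fold change was -1.15.

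Psmd9 (chromosome 5, 123169413 to 123250131, plus strand) encodes another chaperone of the base. These are the bounds in GENCODE, and the RefSeq start used for the sequence above lies inside them, so the motif distance holds for the RefSeq start. It read 78.3, 108 and 97.1 CPM in wild-type and 37.1, 37.8 and 37.2 CPM in knockout libraries, so the knockout values were nearly the same in each library and below each wild-type value (log2 fold change -1.34, SE 0.19, edgeR adjusted p = 0.00250). Psmd9 was the single member, of the 34 with more than trace counts, whose highest value fell in wild-type library 2. An antisense gene, Gm26745, covers 25.5% of its exonic bases, and whether counting used strand is not given, so their reads cannot be told apart. Abundant genes of chromosome 5 had a median of -0.44, the lowest of the chromosomes with members, and 16.6% of its genes tested were lower. Relative to that median Psmd9 stood at -0.90. Psmd5, the remaining chaperone among the members, read 77.6, 39.9 and 72.4 against 40.3, 59.2 and 35.0 CPM, and its overlapping values were not called (log2 fold change -0.50, SE 0.32, edgeR adjusted p = 0.275).

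Of the 8 lid genes, 2 were lower (median log2 fold change -0.65). Psmd14 (chromosome 2, 61711694 to 61800376, plus strand) encodes the metalloprotease that cuts ubiquitin chains from the substrate. It read 201, 162 and 175 CPM in wild-type and 59.5, 85.6 and 92.7 CPM in knockout libraries, without overlap (log2 fold change -1.17, SE 0.22, edgeR adjusted p = 0.00698). The scaffold subunit gene Psmd12 was lower as well (log2 fold change -0.86, SE 0.25, edgeR adjusted p = 0.0359). The other 6 were not called. Psmd3 and Psmd6 had knockout values below each wild-type value (log2 fold change -0.66 and -0.57), Psmd7 and Psmd11 overlapped (-0.74 and -0.64), and Psmd13 and Psmd8 lay at -0.16 and -0.13.

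Of the base ATPase genes, which drive unfolding, 1 of 6 was lower (median log2 fold change -0.55). Psmc2 (chromosome 5, 21785283 to 21803787, plus strand) read 139, 113 and 162 CPM in wild-type and 56.9, 80.8 and 75.1 CPM in knockout samples (log2 fold change -0.96, SE 0.22, edgeR adjusted p = 0.0149; -0.52 relative to the median of chromosome 5). In 5 of the 6 ATPase genes each knockout value lay below each wild-type value, beside 22.2% of all genes and 30.8% of the abundant ones. The exception was Psmc5, with 156, 88.4 and 146 against 46.0, 78.8 and 91.4 CPM (edgeR adjusted p = 0.0836). Among the 3 non-ATPase genes of the base, the ubiquitin receptor gene Psmd4 was lower (log2 fold change -0.87, SE 0.17, edgeR adjusted p = 0.00806). The large scaffold genes Psmd1 and Psmd2 had overlapping groups, at -0.10 and -0.43. Psmd1 read 233, 154 and 174 against 107, 239 and 177 CPM, so its highest and its lowest value were both in knockout libraries.

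**Figure D2:**
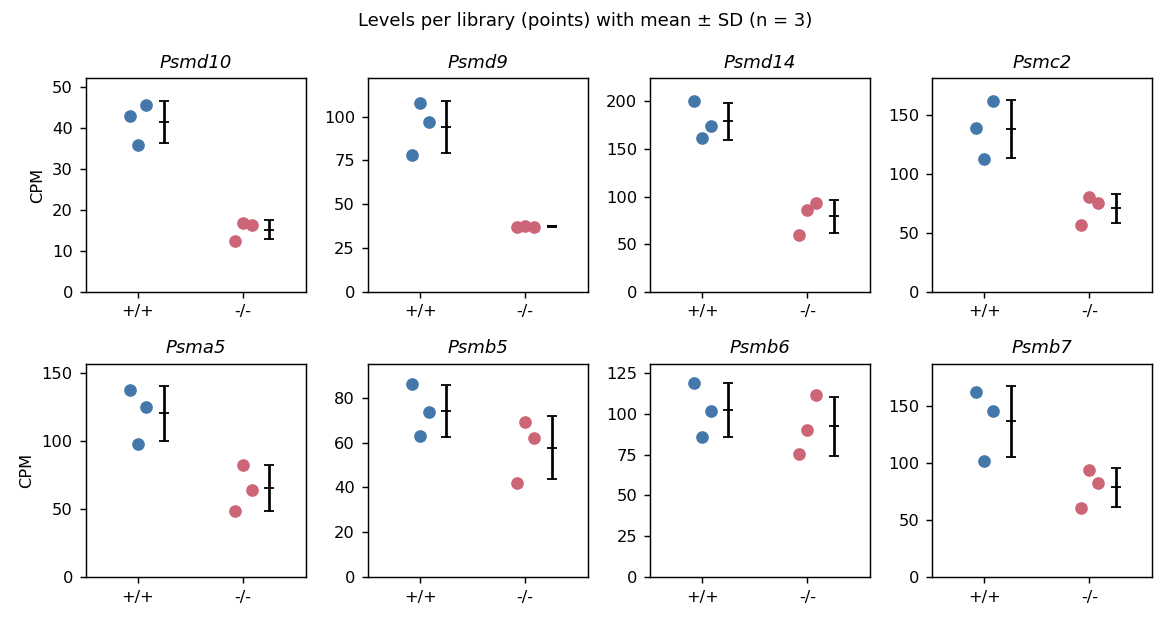
CPM (vertical axes from 0) of 8 subunit genes in each library, with 3 wild-type libraries left and 3 knockout libraries right in each panel; bars are the mean ± SD (n = 3). The groups are apart for Psmd10, Psmd9, Psmd14, Psmc2, Psma5 and Psmb7 and overlap for Psmb5 and Psmb6.

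In the core, 6 of 15 genes tested were lower and 0 higher (9 lower and 0 higher at an unadjusted p below 0.05 by edgeR, 4 lower and 0 higher by DESeq2). The shares and counts over all genes to set beside these are those given above for the members. In the alpha ring, which gates the barrel, 2 of 7 were lower, Psma5 and Psma2. Psma5 (chromosome 3, 108256926 to 108279974, plus strand) read 138, 98.3 and 125 CPM in wild-type and 48.9, 82.7 and 64.0 CPM in knockout libraries, and the groups were apart (log2 fold change -0.89, SE 0.25, edgeR adjusted p = 0.0315). Psma2 was lower by a smaller step (log2 fold change -0.76, edgeR adjusted p = 0.0208). The remaining alpha genes were not called, with log2 fold changes from -0.69 (Psma1) to -0.48 (Psma3 and Psma6), and the groups of Psma3 and Psma4 overlapped.

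The 4 beta genes without proteolytic activity held 3 lower ones, Psmb3 (log2 fold change -0.82, SE 0.23, edgeR adjusted p = 0.0320), Psmb4 (-0.73, SE 0.17, 0.0178) and Psmb1 (-0.57, SE 0.18, 0.0435). Psmb2 overlapped and was not called (-0.37, edgeR adjusted p = 0.315). Of the 3 constitutive catalytic genes 1 was lower. Psmb7, for the trypsin-like site, read 162, 102 and 145 against 60.0, 93.7 and 82.0 CPM and was lower (log2 fold change -0.80, SE 0.25, edgeR adjusted p = 0.0486). Part of its exons (11.8%) lies opposite to Nek6. Psmb5, for the chymotrypsin-like site and the target of clinical proteasome inhibitors, read 85.9, 62.7 and 73.8 against 42.0, 69.0 and 62.0 CPM (log2 fold change -0.36, SE 0.24, edgeR adjusted p = 0.295). Psmb6, for the caspase-like site, read 119, 85.8 and 102 against 75.6, 90.3 and 112 CPM (log2 fold change -0.14, SE 0.22, edgeR adjusted p = 0.651). Both had overlapping groups. The difference between the 3 catalytic genes was not tested.

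The paralogs with tissue-restricted use were almost silent. Psma8, an alpha subunit gene of male germ cells, had 2, 38 and 0 counts in wild-type and 9, 0 and 0 counts in knockout libraries and did not pass the low-count filter. Psmb11, for the catalytic subunit of the thymus, reached at most 0.626 CPM (18, 14 and 2 against 39, 18 and 8 counts). It was the single member with a positive log2 fold change (0.97, SE 0.96, edgeR adjusted p = 0.483), and its groups overlapped.

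Core and cap genes deviated alike from library to library. The median deviation of core genes from the wild-type mean, in log2 CPM, was 0.22, -0.23 and 0.05 in wild-type libraries 1 to 3 and -0.81, -0.37 and -0.45 in knockout libraries 1 to 3. For cap genes it was 0.19, -0.25 and 0.06 against -0.81, -0.37 and -0.56. Knockout library 1 held the lowest value of 29 of the 34 expressed members, and wild-type library 1 the highest of 26. Wild-type library 2 lay nearest to the knockout libraries and had the largest mitochondrial share of its group, 7.91% against 5.58% and 5.03%. Within the knockout group the order was another, since library 1 had the lowest mitochondrial share (11.3%, beside 16.5% and 12.2%). The part of this share was not tested. Without knockout library 1, 0 of the 6 core calls were left (7 at an unadjusted p below 0.05 by edgeR), as also without wild-type library 1 (5 at an unadjusted p) or library 3 (6 at an unadjusted p), and without knockout library 3 the core count was 2. Over 15 alternative fits Psmb1 and Psmb7 were past the threshold in 3, Psmd12 in 8, Psma5 and Psmb3 in 9, Psma2 and Psmb4 in 10, Psmc2 in 13, Psmd4 in 14, and Psmd9, Psmd10 and Psmd14 in 15. The core medians with a library left out ran from -0.71 to -0.38.

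**Figure D3:**
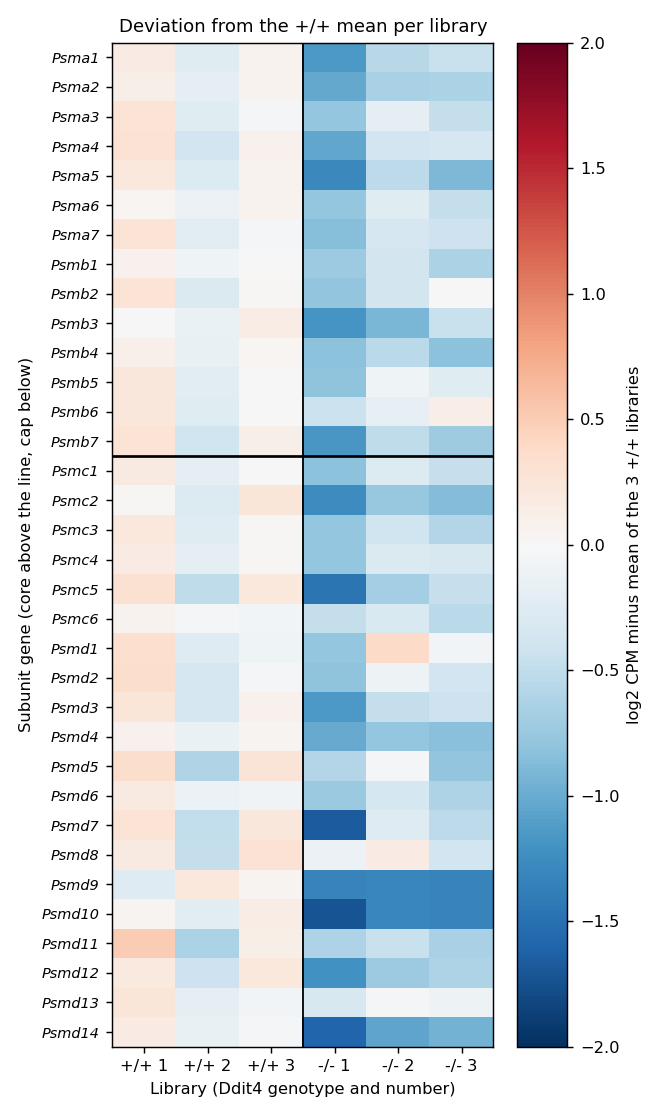
Log2 CPM of 34 subunit genes minus the mean of the 3 wild-type libraries (colour, blue below and red above), with libraries in columns, core genes above the line and cap genes below it; Psmb11 and Psma8 are left out. The knockout library 1 column is the darkest, with a median of -0.81 in core and cap, whereas Psmd9 and Psmd10 are deep blue in each knockout library.

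Summed over the 14 constitutive core subunits, transcripts read 2320, 1795 and 2155 CPM in wild-type and 1100, 1520 and 1482 CPM in knockout libraries, so the knockout sum was 65.4% of the wild-type sum. The 17 cap subunits that are no assembly chaperones summed to 3110, 2208 and 2810 against 1476, 2155 and 1909 CPM (68.2%). Each knockout sum lay below each wild-type sum. The 3 chaperone genes Psmd5, Psmd9 and Psmd10 summed to 199, 183 and 215 against 89.8, 114 and 88.5 CPM (48.9%). The ratio of core to cap differed by less than the spread between libraries. The ratio of their sums in CPM per kilobase of exon was 1.11 ± 0.05 in wild-type and 1.11 ± 0.04 in knockout libraries (SD, n = 3 each).

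Levels per length differed widely between subunits that are built into the particle in equal number. The length is that of all annotated exons of a gene merged, which can exceed the length of its transcript. The spread and the ranks therefore depend on annotation as well. Psma3 (3894 bases) averaged 89.6 CPM in wild-type libraries, above Psmb5 (899 bases) at 74.1 CPM. In CPM per kilobase of exon, Psma3 was the lowest core gene in each of the 6 libraries, and the highest was Psmb4 in the wild-type and Psma6 in the knockout libraries. The highest core level was 5.35 to 6.45 times the lowest within a library. Among the 17 cap subunits Psmd11 was the lowest in each library, and the range was 8.29 to 12.1 times. The mean levels per length of the groups were correlated across genes (log2 scale, Pearson r = 0.957 over 14 core genes and 0.926 over 17 cap genes; Spearman rho 0.912 and 0.860), which is a description since genes share libraries and exon lengths. Psmb4 fell from 138 to 83.5 CPM per kilobase while Psmb6 read 54.6 and 49.4.

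**Figure D4:**
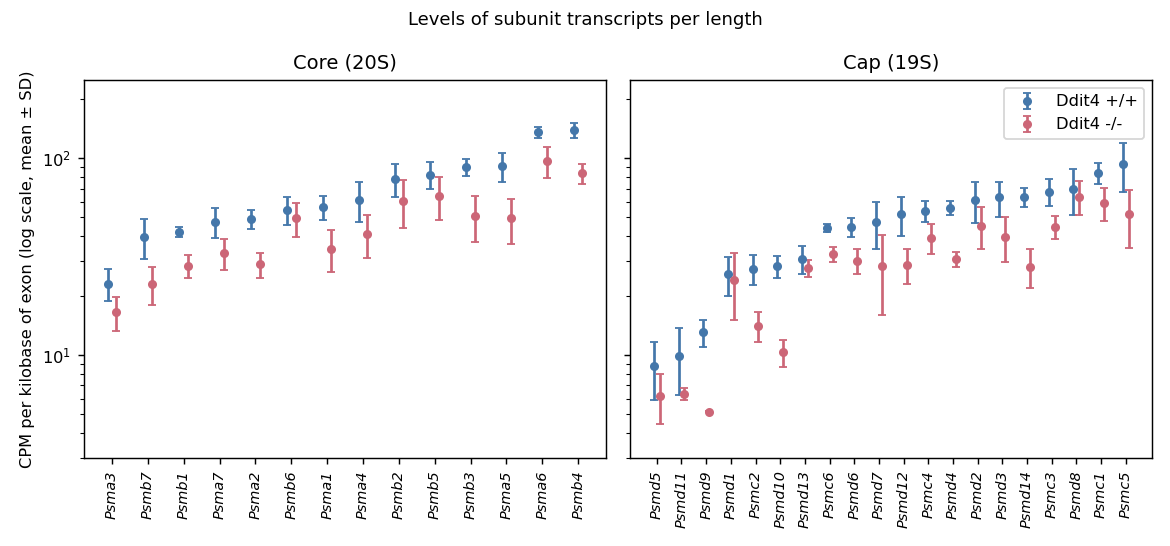
Level of each subunit gene in CPM per kilobase of exon (log axis; mean ± SD over 3 libraries) in wild-type (blue) and knockout (red) cells, ordered by the wild-type level within core (left) and cap (right); Psmb11 and Psma8 are left out. The knockout mean is the lower one for each gene, though the fold changes of Psmb6, Psmd1, Psmd8 and Psmd13 change sign when abundant genes are centred on 0, and the order is largely kept (Spearman rho 0.912 for 14 core genes); the right panel also holds the 3 assembly chaperones.

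Of the 3 immunoproteasome genes, 2 were higher in the knockout libraries and 0 lower. Psmb8, Psmb9 and Psmb10 encode catalytic subunits that replace those of Psmb5, Psmb6 and Psmb7 under interferon and in many immune cells. Psmb10 read 43.9, 31.4 and 34.1 CPM in wild-type and 56.2, 70.6 and 73.4 CPM in knockout libraries and was higher (log2 fold change 0.87, SE 0.22, edgeR adjusted p = 0.0202). Psmb8 read 69.7, 61.9 and 57.5 against 91.5, 85.3 and 107 CPM and was higher (log2 fold change 0.59, SE 0.18, edgeR adjusted p = 0.0452). Psmb9 read 24.9, 26.7 and 22.0 against 34.7, 30.0 and 43.8 CPM and was not called (log2 fold change 0.56, SE 0.22, edgeR adjusted p = 0.0980). Over the 15 alternative fits Psmb10 was past the threshold in 11, Psmb8 in 6 and Psmb9 in 1. For all 3 genes each knockout value was above each wild-type value, as in 27.9% of all genes tested and 21.3% of the abundant ones.

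Set against the constitutive subunit it replaces, each immunoproteasome gene was higher in each knockout library. On CPM per kilobase, Psmb10 over Psmb7 was 0.544 ± 0.073 in wild-type and 1.73 ± 0.19 in knockout libraries (SD, n = 3 each), a 3.18-fold difference. Psmb8 over Psmb5 was 0.228 ± 0.030 and 0.456 ± 0.125 (1.95-fold), and Psmb9 over Psmb6 was 0.126 ± 0.029 and 0.202 ± 0.033 (1.62-fold). These ratios do not depend on the scaling of the libraries. Their level does depend on the merged exon lengths, whereas the fold between the groups does not. In CPM, Psmb10 averaged 66.7 and Psmb7 78.6 in the knockout libraries. An exact two-sided permutation test returned p = 0.1 for each pair, the lowest value within reach of 3 against 3 libraries, and 0.1 after adjustment over the 3 pairs compared. In the same libraries 6 of 6 B cell markers were higher, with sums of 63.9 to 127 CPM, as were 6 of 8 T and NK markers, whose sums overlapped between the groups. Their part in these ratios was not tested.

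**Figure D5:**
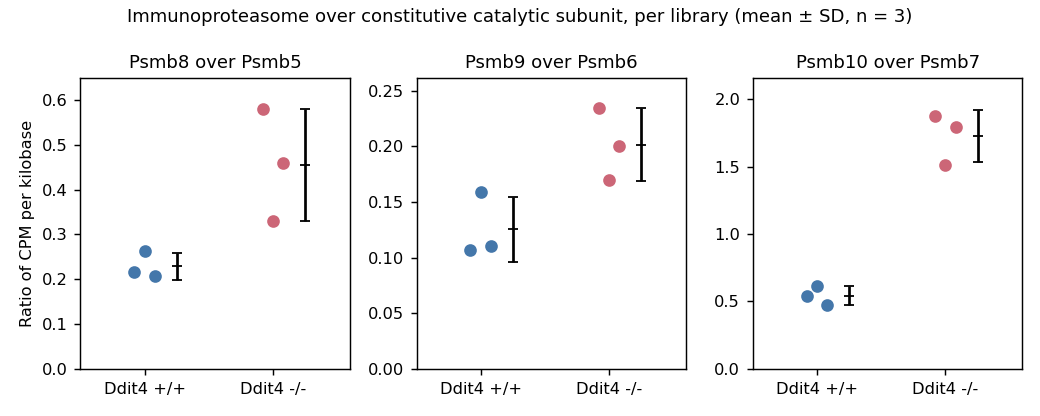
Ratio of CPM per kilobase of an immunoproteasome gene to its constitutive counterpart in each library (points; vertical axes from 0), with the mean ± SD (n = 3). The knockout libraries lie above the wild-type libraries in each panel, furthest for Psmb10 over Psmb7 (1.73 against 0.544). The level of a ratio depends on the exon lengths used.

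Of 36 companion genes of the pathway, all of them tested, 10 were lower and 2 higher, the higher ones being Psmb8 and Psmb10, beside 10.7% lower and 19.4% higher among all genes tested and 17.0% and 15.1% among the abundant ones. The lower count was 4 without wild-type library 1, knockout library 1 or knockout library 3 and 5 without wild-type library 3, and the higher count was 0 or 1 with any library left out. Among the activators and the inhibitor 2 of 5 were lower. Psme3, for a nuclear activator of the core, read 470, 261 and 515 against 86.5, 169 and 166 CPM (log2 fold change -1.56, SE 0.35, edgeR adjusted p = 0.0143), and Psmf1, for an inhibitor of the core, read 81.0, 87.4 and 92.2 against 37.6, 43.0 and 39.0 CPM (-1.12, SE 0.17, 0.00326). Both had groups that were apart. The interferon-induced activator genes Psme1 and Psme2 were not called (-0.26 and -0.28). Of the 5 core assembly chaperone genes, Psmg3 was lower (log2 fold change -1.15, SE 0.30, edgeR adjusted p = 0.0238), while Psmg1, Psmg2, Psmg4 and Pomp were not called. Of 6 genes for cap partners 0 were past the threshold by edgeR or by DESeq2. An unadjusted p below 0.05 was reached by 2 of them, the deubiquitinase gene Usp14 (log2 fold change -0.77, edgeR adjusted p = 0.0544) and the lid gene Sem1 (-0.51, edgeR adjusted p = 0.0652).

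Of the 4 genes for the transcriptional control of subunits, 1 was lower by edgeR and 2 by DESeq2. Ngly1, whose enzyme removes sugar chains from Nfe2l1 before it becomes active, read 61.7, 70.5 and 82.1 against 27.2, 27.8 and 32.6 CPM (log2 fold change -1.29, SE 0.20, edgeR adjusted p = 0.00338). Nfe2l1 itself read 108, 74.0 and 31.0 against 26.7, 36.5 and 29.9 CPM and was not called by edgeR (log2 fold change -1.19, SE 0.42, adjusted p = 0.0688), whereas DESeq2 called it lower (adjusted p = 0.0350). It was past the threshold in 2 of the 15 alternative fits, and its groups overlapped. Ddi2, for the protease that cleaves Nfe2l1, and Nfe2l2 were not called (0.06 and 0.00). Of 13 ubiquitin and shuttle genes 6 were lower. They included the ubiquitin fusion gene Rps27a (log2 fold change -0.59), the activating enzyme gene Uba1 (-0.80) and Nploc4 (-0.80), a cofactor of the segregase Vcp. Vcp was not called (-0.25, edgeR adjusted p = 0.431).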

How the data were processed

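RNA-seq values of 6 libraries of bone marrow AE9a leukemia cells were used, grouped by the genotype in the sample titles. The deposited file held estimated counts for each gene, as whole numbers, from paired 150-bp reads. The submitters' processing notes name GRCm38 (mm10), while the aligner, the counter and the use of strand are not given in the sources used here. The kit was a directional, rRNA-depleting one by the methods and an mRNA one by the labels. Low counts that are multiples of 4 occurred 1.40 to 1.62 times as often as the even values between them. A fragment may thus have been counted several times, and counting error would then be larger than the totals imply.

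Genes were tested in R 4.3.3 with edgeR 4.0.16 (filterByExpr, TMM factors of 0.921 to 1.05, robust quasi-likelihood F-test, genotype as the only term). The SE was taken as the size of the log2 fold change over the square root of F. DESeq2 1.42.0 was an alternative, and 16 alternatives were run on each count. CPM per kilobase used GENCODE M21 exon lengths, with all annotated exons of a gene merged, and replaced TPM, whose scale moves with mitochondrial genes. The script was tested on simulated data. Library measures and ratios were compared by exact permutation tests. Same-numbered libraries did not deviate together (r = -0.165, -0.194 and -0.0495), so numbers were not used as pairs. All 36 members matched GENCODE M21. The members, the companion and marker lists and the tests were chosen with earlier results of these data known. Values of all libraries were given for the 5 lower members of largest change, Psmd14, the catalytic genes, the paralogs and the immunoproteasome genes, and companions and members further named with all values (Psmd1, Psmd5, Psmc5, Psme3, Psmf1, Ngly1, Nfe2l1) were chosen after their values were seen. Some genes of the companion list are not reported here by name.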

Additional observations from a re-analysis of the deposited data

How the results depend on the processing

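Of the 12 members that were lower, Psmd9, Psmd10 and Psmd14 stayed past the threshold in each of the 15 alternative fits and at an adjusted p below 0.01. The directions of the core and cap medians and of the summed levels held in each alternative run for them, and Psmb6, Psmd1, Psmd8 and Psmd13 changed sign in at least 1 fit without being called. The number of lower core genes (6) was 1 when abundant genes were centred on 0, 0 at an adjusted p below 0.01 and 0 to 6 when a library was left out. The number of lower cap genes (6) was 4 to 9 with a library left out. Among all genes, 1975 were lower and 3560 higher. These counts were 712 and 1964 at an adjusted p below 0.01, the lower count was 1089 to 2078 with a library left out, and the higher count was 2341 with a minimum of 10 counts per library. Companion genes that were lower (10) came to 5 when centred, 5 with that count minimum, 2 at an adjusted p below 0.01 and 4 to 10 with a library left out. Companions that were higher (2) came to 1 on library totals alone, 1 without a low-count filter, 0 at an adjusted p below 0.01 and 0 to 1 with a library left out. The core median relative to the abundant genes of each member's chromosome, an alternative chosen after seeing the data, was -0.33, and the cap median was -0.43. With the replicate number as a block, 0 core genes (7 at an unadjusted p below 0.05 by edgeR) and 3 cap genes (Psmd9, Psmd10 and Psmd14) were lower, as were 787 of all genes, with 2177 higher, and 2 companions, with 0 higher. The block uses numbers that did not pair the libraries. The causes of these changes were not tested. With counts divided by 4, the 12 members stayed lower. With 3 libraries a group, changes of the size of most core genes lie near the threshold, and possible repeated counting of fragments leaves the true depth unknown.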
